A study of Mus musculus with 10 samples.

Results

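The genes described here are the 4 Ifit genes Ifit1, Ifit2, Ifit3 and Ifit3b together with Rsad2, Cmpk2 and Ifi44, a group of interferon-stimulated genes measured in brain endothelial cells (BECs). They were chosen by symbol from the annotated table, with measured differences between the genotypes in view, and 7 of 7 were found among the 14106 genes of the table. Since these differences led to the choice, they are given below as a description and without a test.

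BECs were isolated from cortex and sequenced in bulk. Of the libraries, 5 were APP/PS1 and 5 were wild-type controls of matched age and the same C3H/BL6 background, and all mice were female and 1 year old. APP/PS1 mice express a mouse/human APP with the Swedish mutation and a mutant human PS1, described as ubiquitous, and deposit Aβ in the brain. The promoter of the transgenes and the number of mice per library were not given in the sources used here, so each SD below measures the spread between libraries. Cells were enriched on CD31 beads after myelin removal and were described as CD31+CD45- cells. No library of another treatment or age was analysed here. The values are log2 CPM (counts scaled to library size), which the authors had already corrected for batch, and a difference is always APP/PS1 minus control between the 2 libraries that share a replicate number.

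Type I interferons bind the Ifnar1 and Ifnar2 receptor, which signals through the kinases Jak1 and Tyk2. A complex that contains Stat2 and Irf9 then binds a DNA motif, the interferon-stimulated response element (ISRE), at promoters of antiviral genes. Ifit proteins carry tetratricopeptide repeats and bind viral RNA or one another, Rsad2 (viperin) converts CTP into a chain-terminating nucleotide, and Cmpk2 is a mitochondrial nucleotide kinase encoded next to Rsad2. In brain endothelium these genes are known as sensitive reporters of interferon exposure.

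The upstream sequences are shown first because 4 of the 7 members hold an interferon-response motif there. The members are known interferon-stimulated genes, so such matches are not independent of the choice. In the RefSeq promoter windows of GRCm38.p6, the 250 bases before each annotated start were searched for GAAANNGAAA, the core repeat of an ISRE, on both strands. It was found in 2.98% of the 32851 windows and in at least 1 window of 3.46% of 27025 genes. The members with a match were Ifit1, Ifit3 and Ifit3b with 2 each and Rsad2 with 1. The stretches below run from 25 bases before the first match to 25 bases after the last, 5′ to 3′ on the strand of the gene, with the matches in capitals, and each match reads as the motif on the opposite strand.
Ifit1, chr19:34640760-34640838, plus strand: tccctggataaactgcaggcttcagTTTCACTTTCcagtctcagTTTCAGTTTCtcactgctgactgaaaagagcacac
Ifit3, chr19:34583348-34583441, plus strand: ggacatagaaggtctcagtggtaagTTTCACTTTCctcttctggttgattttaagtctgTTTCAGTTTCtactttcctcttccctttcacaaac
Ifit3b, chr19:34607744-34607837, plus strand: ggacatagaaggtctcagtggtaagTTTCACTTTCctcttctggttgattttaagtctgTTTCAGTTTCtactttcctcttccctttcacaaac
Rsad2, chr12:26456538-26456597, minus strand: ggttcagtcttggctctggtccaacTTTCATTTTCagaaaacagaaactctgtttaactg

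The printed stretches of Ifit3 and Ifit3b were identical, and the longest run shared by their upstream windows was 169 bases. Counted from the annotated start, the matches began at −156 and −122 in Ifit3 and at −188 and −154 in Ifit3b. Ifit1 carried the same pair of match sequences closer together, beginning at −104 and −85. The single match of Rsad2 began at −120. The window of Cmpk2, the window of Ifi44 and both windows of Ifit2 held no match to these letters. The palindromic motif TTCNNNGAA, bound by Stat dimers, was present in 7.02% of windows and, among the members, only in 1 window of Ifit2. A match is a description of letters, and a window without one says nothing about binding of the factor.

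The 4 Ifit genes lie in 1 cluster on chromosome 19 that spans 99.3 kb of GRCm38, all on the plus strand, in the order Ifit2 (34550694 to 34576419), Ifit3 (34583531 to 34588731), Ifit3b (34607970 to 34613401) and Ifit1 (34640871 to 34650009). Rsad2 (26442746 to 26456452, minus strand) and Cmpk2 (26469204 to 26479837, plus strand) stand head to head on chromosome 12 with 12.8 kb between their starts. Ifi44 lies alone on chromosome 3 (151730922 to 151749960, minus strand). No annotated gene overlapped any of the 7 on either strand, so reads of an overlapping annotated gene were not a concern for them. The strand setting of the counting was not given in the sources used here, and its effect on their levels was not examined.

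Ifit3 and Ifit3b are near-identical copies. The Ifit3 transcript of 1745 bases matched the Ifit3b transcript with 82 edits, an identity of 95.3%. Of the stretches of 50 bases in Ifit3 transcripts, 51.2% also occurred in another gene, all of them in Ifit3b, and of those of 100 bases 31.7% did. The share was 7.13% at 50 bases in Ifit1, mostly with Ifit1bl2, and 0% in Ifit2, Rsad2, Cmpk2 and Ifi44. How reads from the shared stretches were counted was not given in the sources used here. The separate levels of Ifit3 and Ifit3b, and their ranks among the members below, are therefore uncertain.

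All 7 members were expressed in control BECs. By the mean over all 10 libraries of both groups, Ifit3b stood above 35.7% of genes and Ifit1 above 79.2%. To compare genes with one another, CPM was divided by exon length in kb. On that scale Ifit1 stood highest in the control libraries at 25.3 CPM per kb (4.66 ± 0.01 in log2, SD, n = 5). Ifit3 followed at 3.79 ± 0.06 log2 CPM per kb and exceeded the next gene, Rsad2, in 10 of 10 libraries. Rsad2 (3.43 ± 0.13) and Cmpk2 (3.31 ± 0.12) differed by 0.12 ± 0.13 within control libraries, which is within the spread, although Rsad2 was above Cmpk2 in 9 of 10 libraries. Ifit2 (2.54 ± 0.17) and Ifi44 (2.42 ± 0.11) also differed by less than their spread, 0.13 ± 0.17, with Ifit2 above in 9 of 10 libraries. Ifit3b was lowest at 2.02 ± 0.09 log2 CPM per kb, below Ifi44 in 9 of 10 libraries.

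**Figure D1:**
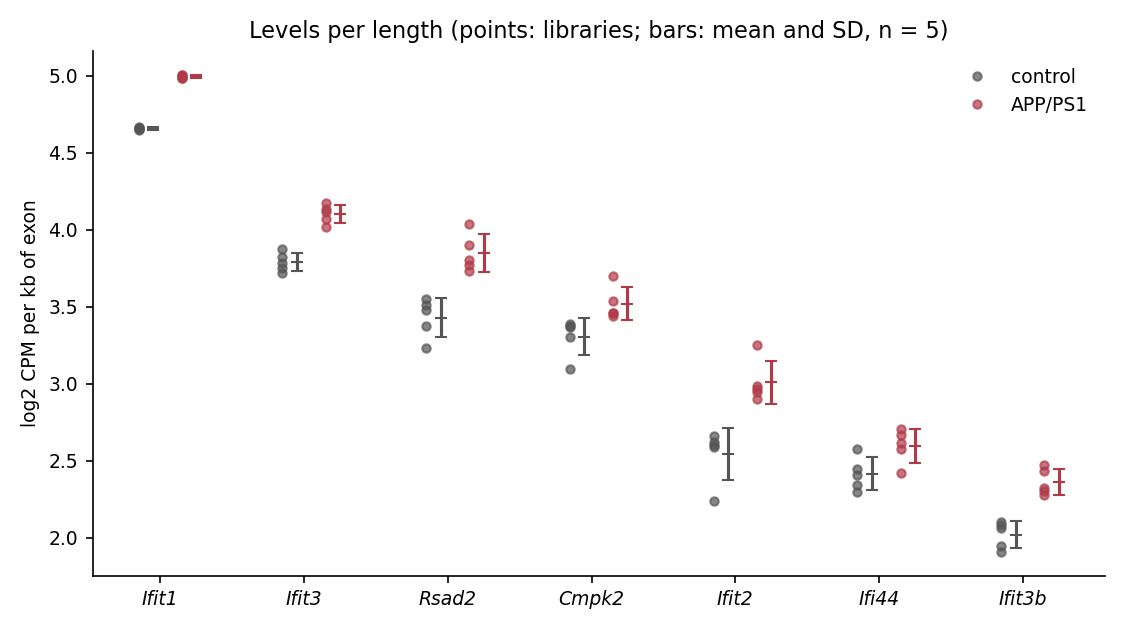
Level of each gene in log2 CPM per kb of exon, with 1 point per library and bars for the mean and SD of 5 control (grey) and 5 APP/PS1 (red) libraries. Ifit1 stood above the other genes in all 10 libraries, and the control libraries of Rsad2 and Cmpk2 overlapped, with Rsad2 above Cmpk2 in 9 of 10 libraries.

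All 7 members were higher on average in BECs of APP/PS1 mice than in those of control mice, with log2 differences between 0.18 for Ifi44 and 0.47 for Ifit2 and a median of 0.34. The median over all 14106 genes was −0.00377. Of the 35 within-replicate differences of the members, 34 were above 0, and the exception was Ifi44 in replicate 3. For 6 of 7 members the difference was above 0 in all 5 replicate numbers, against 2.99% of all genes, and for the same 6 the lowest APP/PS1 library lay above the highest control library, against 2.91% of all genes. These shares are the background of a contrast that chose the members. The batch correction had set the mean of each pair of libraries nearly equal, so the absence of overlap and the common sign are practically 1 observation, and the libraries of a pair mirror each other around the gene's mean. No gene of the table passed an adjusted p of 0.05 by limma, 0% of 14106 genes, nor by limma-voom (0 genes), while 1133 genes had an unadjusted p under 0.05 by limma.

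Ifit1, which binds RNA whose cap lacks the methylation of host mRNA, showed the most even difference. Its control libraries, in the order of replicates 1 to 5, held 6.06, 6.07, 6.08, 6.06 and 6.07 log2 CPM. Its APP/PS1 libraries held 6.42, 6.40, 6.40, 6.42 and 6.40 log2 CPM. Every APP/PS1 library was above every control library by at least 0.32 log2 CPM. The mean difference was 0.34 log2 CPM (limma SE 0.0394), a 1.26-fold level, and the 5 differences lay between 0.32 and 0.36.

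Ifit2, which also binds RNA and acts with the other Ifit proteins, had a mean difference that rested in part on 1 replicate number. Its control libraries held 4.22, 4.60, 4.58, 4.57 and 4.64 log2 CPM in the order of the replicates. Its APP/PS1 libraries held 5.23, 4.92, 4.94, 4.96 and 4.88 log2 CPM. The control library of replicate 1 was the lowest of all and the APP/PS1 library of replicate 1 the highest, while the other 4 of each group lay close together. The mean difference was 0.47 log2 CPM (SE 0.121), 1.38-fold, of which replicate 1 gave 1.01 and the others between 0.24 and 0.39. Without replicate 1 it was 0.33, no longer the highest of the 7, as Rsad2 was then at 0.39. By limma-voom Rsad2 (0.41) also exceeded Ifit2 (0.39). The libraries of replicate 1 also had the lowest totals of their groups, and the part of this in the result was not tested.

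Ifit3, a binding partner of other Ifit proteins, was measured at 4.53, 4.56, 4.59, 4.63 and 4.68 log2 CPM in control libraries. In APP/PS1 libraries it was at 4.98, 4.94, 4.92, 4.88 and 4.82 log2 CPM. The groups did not overlap, the mean difference was 0.31 log2 CPM (SE 0.0588) and the fold 1.24. Its copy Ifit3b was at 2.95, 3.07, 2.92, 3.09 and 3.11 log2 CPM in control and at 3.44, 3.33, 3.48, 3.31 and 3.29 in APP/PS1 libraries. The groups were again apart, with a mean difference of 0.34 log2 CPM (SE 0.0745) and the widest difference, 0.56, in replicate 3. Given the shared sequence, the values of the 2 copies cannot be treated as independent.

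Rsad2, the enzyme viperin, was at 5.49, 5.67, 5.63, 5.35 and 5.60 log2 CPM in the control libraries. In the APP/PS1 libraries it was at 6.02, 5.85, 5.89, 6.16 and 5.92 log2 CPM. Its groups did not overlap, and replicate 4 had both the lowest control and the highest APP/PS1 library. The mean difference was 0.42 log2 CPM (SE 0.101), 1.34-fold, with values from 0.18 in replicate 2 to 0.81 in replicate 4.

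Cmpk2, its neighbour, was at 5.16, 5.43, 5.43, 5.36 and 5.45 log2 CPM in control libraries. In APP/PS1 libraries it was at 5.76, 5.52, 5.52, 5.60 and 5.50 log2 CPM. The groups did not overlap, but the lowest APP/PS1 library exceeded the highest control library by no more than 0.0501 log2 CPM. The mean difference was 0.21 log2 CPM (SE 0.0932), 1.16-fold, and replicate 1 supplied 56.4% of the summed differences. Without replicate 1 the mean difference was 0.12. For Rsad2 and Cmpk2 alike, the 2 highest differences were those of replicates 1 and 4.

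Ifi44, an interferon-induced protein of antiviral defence, was the 1 member whose groups overlapped. It was at 4.96, 4.92, 5.20, 5.07 and 5.02 log2 CPM in control libraries and at 5.29, 5.32, 5.04, 5.19 and 5.23 in APP/PS1 libraries. Replicate 3 ran the other way, with a difference of −0.16, while the other 4 lay between 0.13 and 0.40. The mean difference was 0.18 log2 CPM (SE 0.0898), and it was between 0.12, without replicate 2, and 0.27, without replicate 3, when 1 replicate number was left out.

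**Figure D2:**
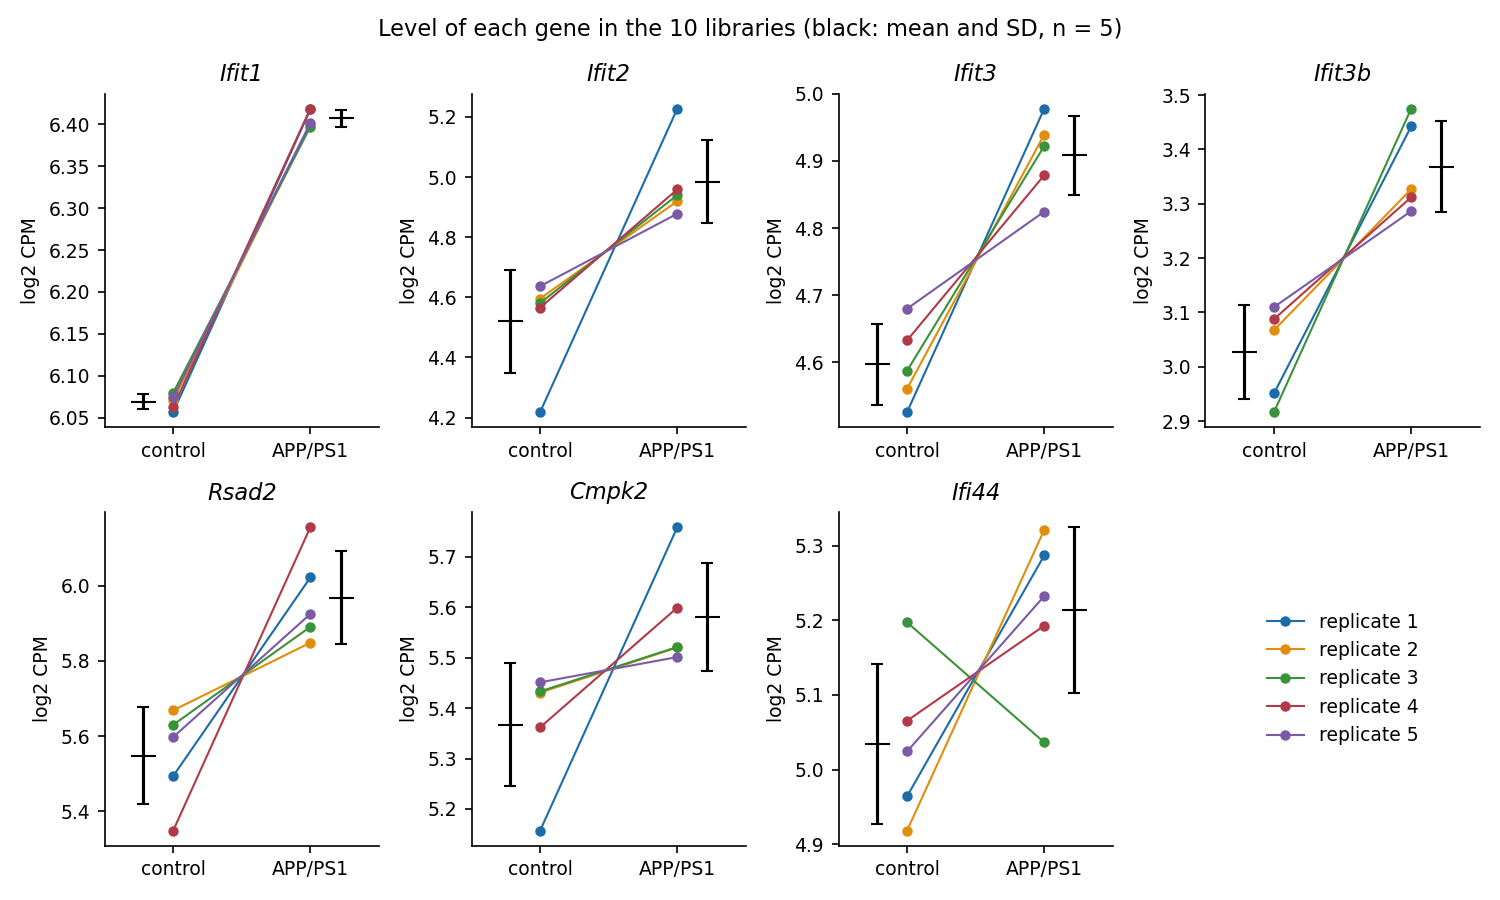
Log2 CPM of each gene in the 10 libraries, with lines joining the control and APP/PS1 library of a replicate number and black bars for mean and SD (n = 5); each panel has its own axis. All lines slope upward except that of replicate 3 for Ifi44, and the lines of a gene cross near 1 point because the batch correction set pair means nearly equal.

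Replicate numbers differed in how far the members stood apart. The members' median difference was 0.49 log2 CPM in replicate 1, 0.32 in replicate 2, 0.32 in replicate 3, 0.25 in replicate 4 and 0.21 in replicate 5. Replicate 1 held the highest difference of 4 of 7 members and replicate 5 the lowest of 4 of 7. Over all genes the median difference within a replicate number was between −0.00871 and 0.00138. Scaling to library size holds such medians near 0, so they cannot tell whether a replicate number had a general shift.

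**Figure D3:**
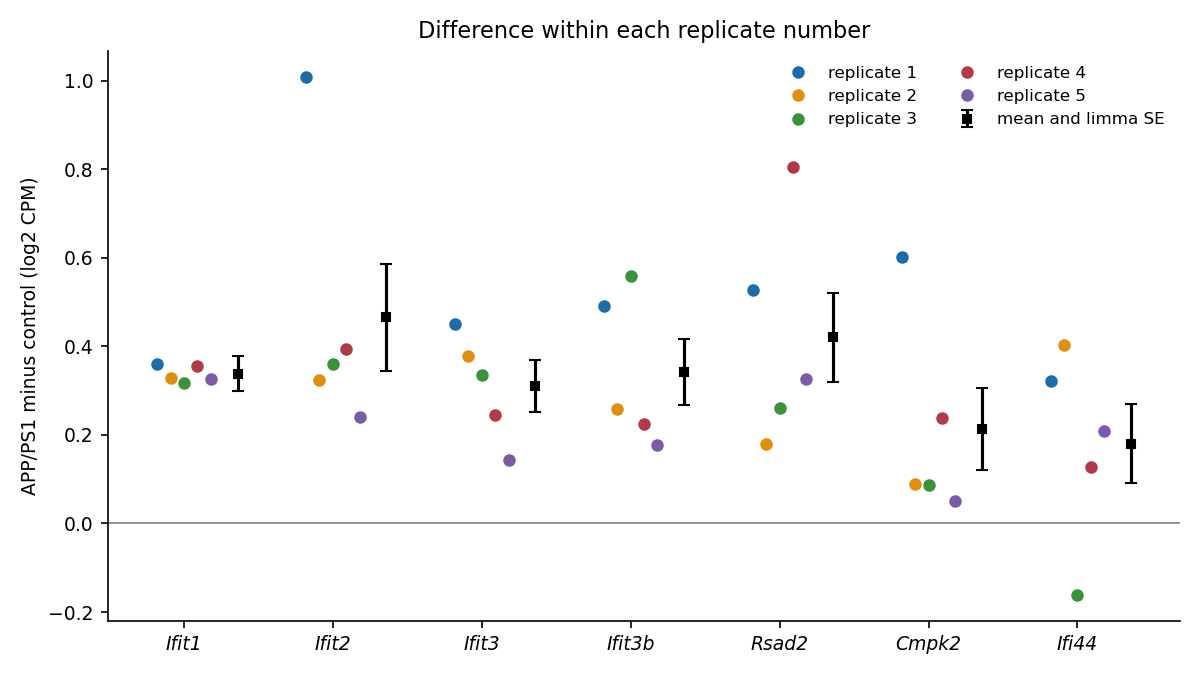
APP/PS1 minus control in log2 CPM for each gene and replicate number (coloured points), with the mean and limma SE (black). Ifit1 spans 0.32 to 0.36, Ifit2 reaches 1.01 in replicate 1, and Ifi44 lies at −0.16 in replicate 3.

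The rest of the interferon pathway was read from 9 lists by role, which hold 118 genes that are not members. Of these, 96 were in the table. Over the whole table, 6798 of 14106 genes were higher in APP/PS1 BECs, which is the background for each count of direction below. Of the 96 pathway genes, 74 were higher and 22 were lower. Their median log2 difference was 0.0737. By limma, 0 of the 96 had an adjusted p under 0.05 and the smallest value was 0.451. An unadjusted p under 0.05 was reached by 17 higher genes, where the share over all genes was 2.13%, and 2 lower genes, where it was 5.91%. Of the members, 5 of 7 were among the higher genes at that level, a count that nothing is read from because they were chosen on this contrast. The count of 17 was 3 without replicate 1, 7 without replicate 4, 8 without replicate 5 and 3 when the libraries were centred on endothelial markers. Over all genes, 300 higher genes reached that level, and in the same 4 settings 231, 253, 239 and 163 did. Across the 14 alternatives the pathway count ran from 3 to 37. It was 20 without replicate 2, 25 with 4 label batches and 37 without the replicate block. Many of these genes were part of the results known when the lists were drawn up, so their direction is not independent evidence.

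None of the 10 interferon ligand genes listed was among the genes in the table. Of the receptor and JAK-STAT genes, 10 of 12 were higher, with a median difference of 0.0656 log2 CPM. Ifnar1, counted among the 10, differed by 0.051 log2 CPM (SE 0.0703, adjusted p = 0.898 by limma). It was higher in 2 of 5 replicate numbers, with a difference of 0.33 in replicate 1. Ifnar2 differed by 0.0936 log2 CPM (adjusted p = 0.795) and was higher in 4 of 5. Stat2 and Irf9, which act at the ISRE, were higher in all 5 replicate numbers, by 0.15 (SE 0.0495) and 0.15 log2 CPM (SE 0.0481), each with an adjusted p of 0.569. Il10rb, a receptor chain shared by interferon lambda and interleukin 10, differed by 0.12 log2 CPM (adjusted p = 0.754).

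Of the inducers and sensors, 8 of 17 were higher and 9 lower, with a median of −0.0233 log2 CPM. Irf7, the interferon-induced factor that amplifies interferon production, differed by 0.28 log2 CPM (SE 0.0936, adjusted p = 0.571) and was higher in 4 of 5 replicate numbers. Ifih1, the RNA sensor MDA5, differed by 0.10 log2 CPM in the same direction in 5 of 5 (adjusted p = 0.673). Irf1 differed by 0.17 log2 CPM (adjusted p = 0.726).

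Among the effectors, 5 of 6 Oas and Oasl genes, whose products sense double-stranded RNA, were higher, with a median of 0.17 log2 CPM. Oasl2 (0.16, adjusted p = 0.594), Oas1a (0.18, adjusted p = 0.617) and Oas1b (0.21 log2 CPM, adjusted p = 0.63) had the smallest p. Of the interferon-induced GTPases, 16 of 17 were higher, with a median of 0.17 log2 CPM. Gbp3 and Irgm1 were higher by 0.16 and 0.17 log2 CPM in 5 of 5 replicate numbers (adjusted p = 0.544 and 0.592), whereas Gbp8 was lower, with a difference of −0.24 log2 CPM (adjusted p = 0.569).

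Among ISGylation and PARP genes, 10 of 12 were higher. Isg15, the ubiquitin-like modifier, had a difference of 0.34 log2 CPM (SE 0.0724, adjusted p = 0.451), as large as that of Ifit1, and was higher in 5 of 5 replicate numbers. Usp18, which removes Isg15 and damps receptor signalling, differed by 0.16 (adjusted p = 0.569) and Parp14 by 0.16 log2 CPM (adjusted p = 0.575), each higher in 5 of 5. Of the other interferon-stimulated genes, 19 of 25 were higher, among them Rtp4 (0.16) and Xaf1 (0.17 log2 CPM), with adjusted p of 0.569 each. Ifitm1, a membrane protein that restricts virus entry, was lower, with a difference of −0.75 log2 CPM (SE 0.225, adjusted p = 0.563). All 7 negative regulators in the table had differences above 0, with a median of 0.0477 log2 CPM, and besides Usp18 the smallest p were those of Socs1 (0.30, adjusted p = 0.632) and Pias1 (0.0477 log2 CPM, adjusted p = 0.848). Of 4 relatives of the members, such as Ifit1bl1 and Ifi44l, only Cmpk1, a cytosolic nucleotide kinase, was in the table, with a difference of −0.0199 log2 CPM.

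**Figure D4:**
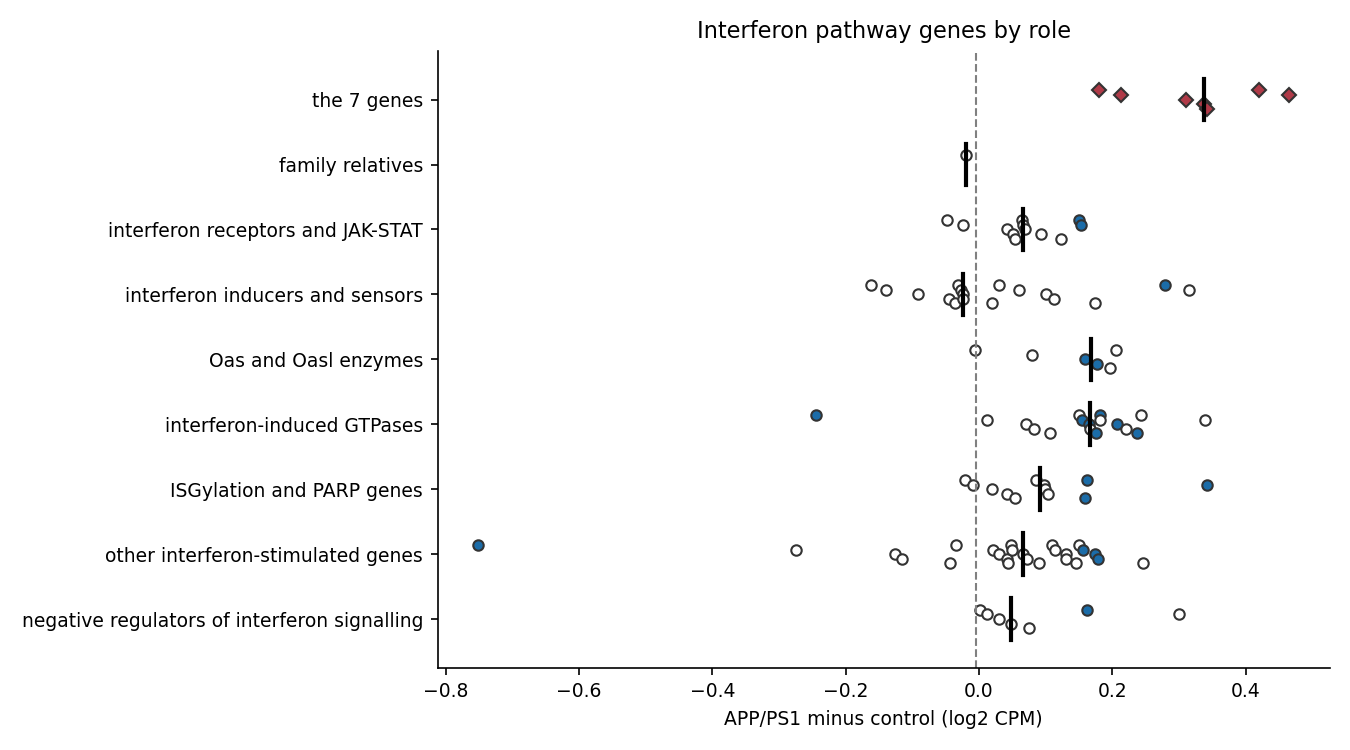
APP/PS1 minus control in log2 CPM for the 7 genes (red diamonds) and for the pathway genes of each role (circles, filled where the unadjusted limma p was under 0.05); thick bars are list medians and the dashed line is the median of all genes. The medians of the other lists lie between −0.0233 and 0.17, below the 0.34 of the 7 chosen genes.

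The genes next to the members lay on both sides of 0. Of the 12 nearest tested protein-coding genes, 2 on each side of the 3 loci, 5 were higher and 7 lower, with a median of −0.0463 log2 CPM, and 0 had an adjusted p under 0.05 by limma. Beside the Ifit cluster, Lipa, the lysosomal acid lipase, lay 23.2 kb away with a difference of 0.0233 log2 CPM (adjusted p = 0.951). On the other side Slc16a12, a creatine transporter 18.4 kb away, was lower, with a difference of −0.55 log2 CPM (SE 0.16, adjusted p = 0.556), the 1 neighbour with an unadjusted p under 0.05. Rnf144a, a ubiquitin ligase 27.5 kb from Rsad2, differed by −0.027 log2 CPM. Next to Ifi44, Ptgfr, a prostaglandin receptor, differed by −0.29 and the endothelial receptor Adgrl4 by 0.0945 log2 CPM. The other 7 were Ch25h, Pank1, Id2, Sox11, Rps7, Adgrl2 and Dnajb4, with differences between −0.27 and 0.17 log2 CPM.

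Genes with a pattern most like that of the members were sought among 13120 other genes with a mean of at least 0 log2 CPM, by the root mean square distance between a gene's 5 differences and the members' median differences. The nearest were the lincRNA Gm7160 (distance 0.0693 log2 CPM), the processed pseudogene Gm48640 (0.0955), 2810410L24Rik (0.0977), E030022I16Rik (0.104) and Gm10030 (0.111). None of the 5 is annotated as protein-coding. Among the members themselves the distance ran from 0.0421 for Ifit3 to 0.266 for Rsad2, so these genes were nearer to the median pattern than most members, over 5 replicate numbers only.

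The labelled cell type was checked with markers. The 12 brain endothelial markers summed to between 24383 and 26435 CPM in every library, and their median difference was 0.0284 log2 CPM, with 9 higher and 3 lower. In bulk RNA, fewer cells of a type and less RNA per cell cannot be told apart. Mural cell markers were lower for 7 of 7 genes (median −0.76 log2 CPM), with sums of 521 to 889 CPM in control and 262 to 523 CPM in APP/PS1 libraries. Oligodendrocyte lineage markers were lower for 8 of 8 genes (median −1.48), with sums of 37.7 to 272 CPM in control and 31.2 to 138 CPM in APP/PS1 libraries. Astrocyte markers were lower for 6 of 7 genes (median −0.86). The exception was Gja1, by far the most abundant of the 7, with means of 7.09 (control) and 7.36 log2 CPM (APP/PS1). It differed by 0.27 log2 CPM (adjusted p = 0.714 by limma). The astrocyte sums, 169 to 207 CPM for control and 170 to 211 CPM for APP/PS1, mostly followed Gja1. These sums do not show the lower levels of the other 6 genes. The 3 neuron markers in the table were lower, with sums of 6.57 to 8.13 and 4.74 to 6.08 CPM. The 4 erythroid markers were lower on average, with sums of 29.3 to 241 and 14.2 to 153 CPM. By replicate number 1 to 5 their median difference was −1.58, −3.33, −3.98, 0.83 and 2.35 log2 CPM. All 4 were higher in replicates 4 and 5. The part of any of these marker lists in the members' difference was not tested.

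Microglia and leukocytes also express interferon-stimulated genes. Of 14 markers of these cells, 11 were in the table, 4 higher and 7 lower, with sums of 59.5 to 70.1 CPM in control and 55 to 65.1 CPM in APP/PS1 libraries. None of the 11 was at 0 in any library, and Aif1, Itgam and S100a8 were not among the genes in the table. By replicate number 1 to 5, the median difference of microglia and leukocyte markers was 0.39, 0.19, −0.67, 0.11 and −0.62 log2 CPM, beside 0.49, 0.32, 0.32, 0.25 and 0.21 for the members. That of mural markers was −1.62, −0.32, −0.70, −1.45 and 0.12, that of astrocyte markers −2.57, 0.66, −1.65, −0.77 and −0.19, and that of oligodendrocyte lineage markers −2.70, 0.65, −1.34, −1.98 and −1.55 log2 CPM. Replicate 1, with the highest median of the members, had the highest median of microglia and leukocyte markers and the lowest of the other 3 lists, and the part of any of these in the members' difference was not tested.

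**Figure D5:**
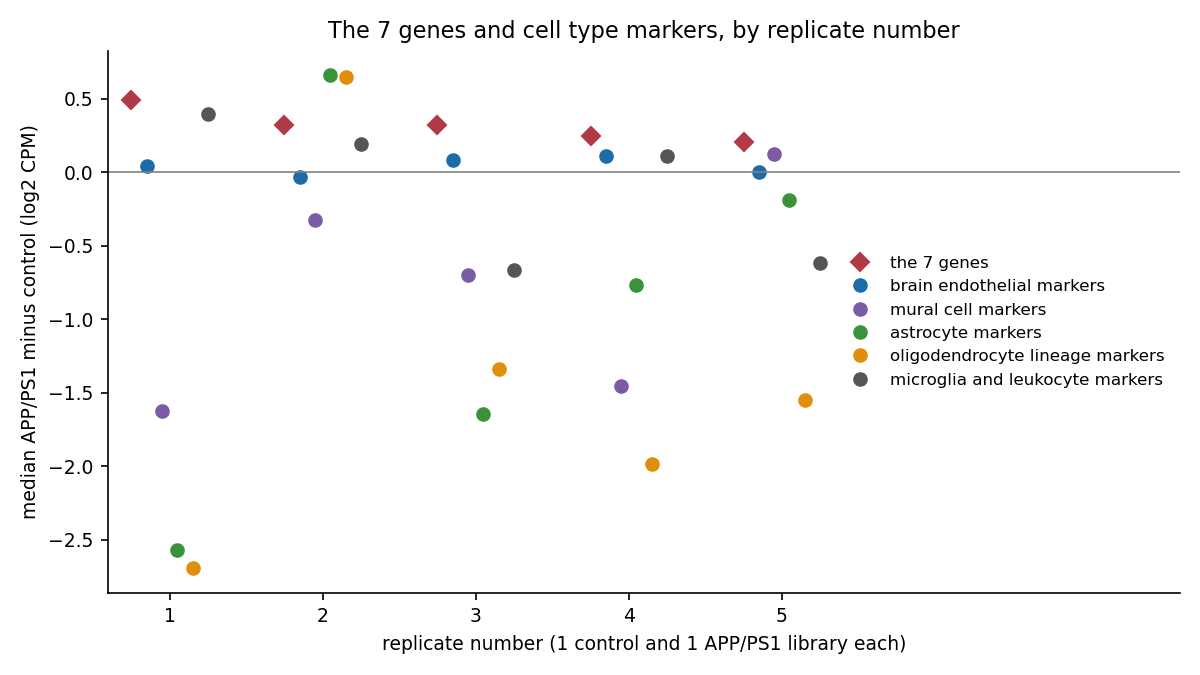
Median APP/PS1 minus control in log2 CPM of the 7 genes (red diamonds) and of 5 marker lists (circles) in each replicate number, drawn side by side for legibility. The median of the 7 genes is above 0 in all 5 replicate numbers, between 0.21 and 0.49. The medians of the drawn marker lists of other cells range from −2.70 to 0.66. Neuron markers, down to −2.76, and erythroid markers, from −3.98 to 2.35, are not drawn.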

How the data were processed

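By their methods, the authors used STAR for alignment to mm10 and HTSeq for gene counts, removed low counts, computed log2 CPM in edgeR and then applied ComBat. The versions were not given in the sources used here. They deposited these log2 values for 14106 genes in 10 libraries. Conversion back gave whole adjusted counts for 100% of values per library (tolerance 0.01, prior count 3), with totals of 22371766 to 126686149. A correction of log values would not in general leave whole numbers, so which correction made these values is not settled. Because they differ from reads, counting errors were not derived.

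Symbols and positions came from GENCODE M21 (14106 of 14106 genes matched). lmFit and eBayes of limma 3.58.1 in R 4.3.3 were fitted to the deposited values with genotype and the 5 replicate numbers as terms, with Benjamini-Hochberg adjustment over all genes. The pairing follows the study's supplementary plot of 5 batches, while the sample labels give 4, with replicates 4 and 5 in 1. The pair means had already been set equal, with a median SD of 0.00353 log2 CPM, so the correlation of deviations within pairs could not be used as a check. The fit was also run on simulated data as a check of the code, and nothing about the results is read from that run.

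The members and gene lists were chosen with earlier results of these data known. Named genes were the members, the 3 genes of each pathway list with the smallest p, the neighbours and the 5 most similar genes. Values of Ifnar1, Ifnar2 and Gja1 are given besides these. The alternatives were another batch term or none, a variance trend, a filter, a prior count, 3 other scalings, limma-voom and each replicate number left out. Promoter windows were those of RefSeq (GRCm38.p6), in which 7 of 7 members matched.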

Additional observations from a re-analysis of the deposited data

Results flagged for a closer look

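The Dixon ratio of the most distant library was above 0.71 in 6 of 90 sets of 5 libraries, 2 for each of 45 named genes, and chance gives about 1 in 20. Since the libraries of a replicate number mirror each other after the batch correction, the 2 flags of a gene are not independent. Ifit2 was flagged in control, where replicate 1 was at 4.22 log2 CPM and the others between 4.57 and 4.64, and in APP/PS1, where replicate 1 was at 5.23 and the others between 4.88 and 4.96. Socs1 was flagged for replicate 2 in both groups, at 2.59 log2 CPM in control against 2.21 to 2.30 in the others, and at 2.34 in APP/PS1 against 2.66 to 2.75. Ptgfr was also flagged for replicate 2, at 2.29 log2 CPM in control against 2.72 to 2.81, and at 2.73 in APP/PS1 against 2.26 to 2.36.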

How the results depend on the processing

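The members' median log2 difference was between 0.30 and 0.36 under the 10 alternatives that could move it. The other 4 (another batch term or none, the variance trend, the filter) leave it as it is by construction, and the members were chosen on this contrast. For Ifit1, whose differences had the smallest spread, centring on endothelial markers (0.30) and on the median (0.36) moved the value by more than 1 SD. Without the replicate block, 648 genes passed an adjusted p of 0.05 instead of 0 and 3049 an unadjusted p of 0.05 instead of 1133, and among interferon pathway genes 11 instead of 0 and 39 instead of 19. That fit does not count what the earlier batch correction took from the residual degrees of freedom. With 4 label batches 1 gene passed the adjusted threshold. With 1 replicate number left out, 0 to 5 genes passed it, 748 to 2008 genes passed the unadjusted one, and so did 4 to 22 pathway genes. Without replicate 1, 4 pathway genes did, without replicate 4 10, and without replicate 5 9. In the same fits 748, 862 and 939 of all genes did. Centring on endothelial markers, added after the values were seen, left 5 pathway genes and 1209 of all genes. The cause was not tested. Among the named genes as defined above, the differences that changed sign were those of Cmpk1 (0.00079 centred on the median), Lipa (−0.0147) and Sox11 (−0.0304 centred on endothelial markers). With 1 replicate number left out, Cmpk1 ranged from −0.103 to 0.0301, Lipa from −0.0128 to 0.0569, Pank1 from −0.00791 to 0.144, Rnf144a from −0.0814 to 0.0764, Sox11 from −0.0678 to 0.0604 and Rps7 from −0.187 to 0.00796. A filter of 1 log2 CPM left no value for Gbp8 and Sox11.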

Other observations

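The evenness of Ifit1 stood apart from that of the other members. Its 5 differences had an SD of 0.0192 log2 CPM, and 0.078% of the 14106 genes had a smaller one, while those of the other members were between 0.119 for Ifit3 and 0.309 for Ifit2. The limma SE of Ifit1, 0.0394, is wider than this SD alone would give because the model moderates the variance of a gene toward that of all genes. Its adjusted counts ran from 1547 to 9445 over the libraries.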
